A study of Capra hircus with 6 samples.

Results

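Leukocyte integrins, including those that take lymphocytes to the gut, were followed in peripheral blood mononuclear cells of goat kids (Capra hircus) by the read counts of 9 subunit genes. The members are ITGA4, ITGA6, ITGAL, ITGAM, ITGAX, ITGAE, ITGB1, ITGB2 and ITGB7, a list made with earlier results of these data known and matched by symbol, and all 9 were among the 24779 genes counted. The study asked which genes these cells, the lymphocytes and monocytes of the blood, express differently in kids fed milk replacer (test, 3 libraries) and kids fed doe's milk (control, 3 libraries). The labels call the libraries biological replicates and give no breed, age or length of feeding. Whether each library came from a separate animal is not given in the sources used here, so p-values measure only the spread between these samples, which may be technical.

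Integrins are paired receptors of an alpha and a beta subunit that hold a leukocyte to a vessel wall or to tissue once signals inside the cell have switched them to a high-affinity form. The beta2 subunit (ITGB2) pairs with alphaL (ITGAL) on lymphocytes and with alphaM (ITGAM) and alphaX (ITGAX) mainly on myeloid cells, which then bind ICAM proteins, complement fragments and fibrinogen. The alpha4 subunit (ITGA4) pairs with beta7 (ITGB7) to bind MAdCAM on gut vessels, or with beta1 (ITGB1) to bind VCAM on inflamed vessels. AlphaE (ITGAE) pairs with beta7 to hold lymphocytes to E-cadherin of the gut epithelium, and alpha6 (ITGA6) pairs with beta1 to bind laminin.

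The 6 libraries were of 2 kinds, which crossed the feeds. Replacer-milk library 1 and doe-milk libraries 1 and 2 held blood cell transcripts. In replacer-milk libraries 2 and 3 and doe-milk library 3, counts rose with gene span, exons and introns together, with a Spearman correlation across genes from 0.893 to 0.896, against 0.374 to 0.387 in the other 3. The first kind is called transcript-like and the second span-proportional. Whether the counts of the span-proportional libraries come from RNA was not tested, so their CPM, and any difference that uses them, compare counts and not transcript levels. Totals ran from 25023210 to 57204363 counts per library. In the transcript-like libraries the defining markers of mononuclear cells were present. The T cell receptor chain CD3E had 490 CPM (counts scaled to the library total) in replacer-milk library 1 and 479 and 405 CPM in doe-milk libraries 1 and 2. The B cell antigen MS4A1 had 465 CPM against 445 and 465 CPM, and the monocyte receptor CD14 137 CPM against 120 and 101 CPM. In the span-proportional libraries the same 3 genes had at most 23.3 CPM.

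Every member was counted in every library, and all but ITGAE were higher in each transcript-like library than in any span-proportional one. The share of all genes that separated in this way was not computed, so the separation is not read as a trait of the integrins. ITGB7 stood furthest apart, with 202 to 253 CPM in the transcript-like libraries and 8.47 to 14.3 CPM in the others. ITGA6 came closest to overlapping, with 53.5 CPM in its lowest transcript-like library and 52.9 CPM in its highest span-proportional one. ITGAE ran the other way, with 13.8 to 15.1 CPM against 32.0 to 273 CPM. The feed was therefore compared first within the transcript-like libraries, replacer-milk library 1 against doe-milk libraries 1 and 2. The replacer-milk side of that comparison is 1 library, assumed to vary like the doe-milk libraries.

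**Figure D1:**
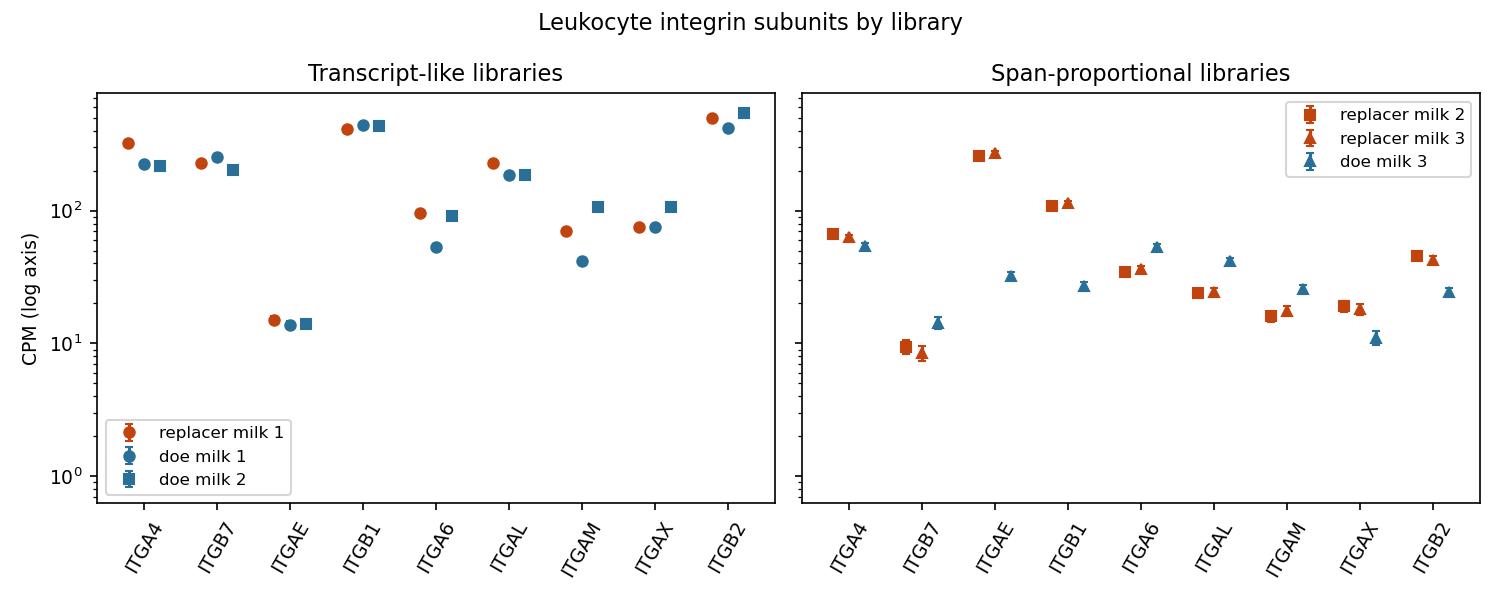
CPM of the 9 integrin subunits (log axis) in the transcript-like libraries (left) and the span-proportional libraries (right), with replacer milk in red and doe milk in blue. Bars are exact 95% Poisson intervals of the counts and cover counting error only. ITGA4 and ITGAL stand higher in replacer-milk library 1 than in both transcript-like doe-milk libraries, and ITGAE stands at 260 and 273 CPM in replacer-milk libraries 2 and 3 against 32.0 CPM in doe-milk library 3.

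Within the transcript-like libraries no integrin subunit passed the test between the feeds. ITGA4 and ITGAL, both subunits of lymphocyte integrins, lay above both doe-milk libraries in replacer-milk library 1, ITGB1 and ITGAX lay below both, and the other 5 lay between the doe-milk libraries after TMM scaling (edgeR's trimmed-mean library factors). The quasi-likelihood test of edgeR covered 17356 genes and called 3 of them (0.0173%) at an adjusted p of 0.05, each listed by LOC number only and none a member. The members had 0 calls in edgeR, DESeq2 and limma voom and 0 with an unadjusted edgeR p below 0.05. DESeq2 called 0.965% of genes. Replacer-milk library 1 lay above both doe-milk libraries for 34.4% of all genes and below both for 33.2%, beside 2 and 2 of the 9 members. The median log2 fold change (replacer milk minus doe milk) was −0.057 over the members and −0.0057 over all genes. With 1 library against 2, an exact permutation test of a single gene cannot reach 0.05.

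ITGA4, the alpha chain of the gut-homing and the VCAM-binding integrin, had the largest log2 fold change among the members in this fit, though not with either doe-milk library left out. It had 16798 counts in replacer-milk library 1, against 10848 and 12495 counts in doe-milk libraries 1 and 2. That is 324 CPM (exact Poisson 95% interval 319 to 329) in replacer milk and 226 CPM (221 to 230) and 218 CPM (215 to 222) in doe milk. The doe-milk libraries lay close together and replacer-milk library 1 lay above them. By library totals it had 1.46 times the doe-milk mean of 222 ± 5.14 CPM (SD, n = 2), a log2 fold change of 0.54 in the fit. After TMM scaling the values were 308 CPM against 231 and 225 CPM. There the log2 fold change was 0.43 (SE 0.19), with an unadjusted edgeR p of 0.0595 and an edgeR adjusted p of 0.948. Its value was 0.41 to 0.45 with either doe-milk library left out.

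The beta7 chain, ITGB7, gave no such difference between the feeds. It had 229 CPM in replacer-milk library 1 and 253 and 202 CPM in doe-milk libraries 1 and 2, so that replacer milk lay between the doe-milk libraries. The log2 fold change was −0.10 (SE 0.22, edgeR adjusted p = 0.984). ITGAE, the other partner of beta7, was low in all 3, at 15.1 CPM (783 counts) against 13.8 and 14.1 CPM (662 and 807 counts). Its log2 fold change was 0.0030 (SE 0.24, edgeR adjusted p = 0.999), and its exact Poisson interval in replacer milk, 14.1 to 16.2 CPM, overlapped both of the doe-milk intervals. By library totals ITGAE lay above both doe-milk libraries, and after TMM scaling it lay between them. GSG2, a gene of mitotic chromosomes, lies within ITGAE in the ARS1.2 assembly, and without a stated strand setting reads of the 2 genes may be shared or dropped.

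ITGB1, the common beta chain of the alpha4 and alpha6 integrins, had 413 CPM in replacer-milk library 1, against 444 and 433 CPM in doe-milk libraries 1 and 2, and lay below both. Its log2 fold change was −0.20 (SE 0.19, edgeR adjusted p = 0.979). ITGA6, the laminin-binding chain, had 96.3 CPM against 53.5 and 91.4 CPM. The doe-milk libraries differed from each other 1.71-fold, and replacer-milk library 1 lay near the higher of them, above it by library totals and below it after TMM scaling (91.4 against 94.2 CPM). The log2 fold change of 0.30 (SE 0.36, edgeR adjusted p = 0.979) rested on doe-milk library 1, for it was −0.043 without that library. Platelets also carry alpha6, and the platelet list, 10 genes in the table, summed to 862 CPM in replacer-milk library 1 and to 721 and 1061 CPM in doe-milk libraries 1 and 2. Most of that sum was the platelet tubulin TUBB1, at 555 CPM against 406 and 648 CPM. After TMM scaling, 9 of the 10 genes were negative in the fit and 6 lay below both doe-milk libraries in replacer-milk library 1. The chemokine PPBP was among them, at 28.3 CPM against 41.3 and 51.0 CPM by library totals. The part of platelets in the ITGA6 level was not tested.

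Among the beta2 integrins, ITGAL lay above both doe-milk libraries and ITGAX below both. ITGAL, the alpha chain that lets lymphocytes bind ICAM, had 229 CPM in replacer-milk library 1, against 186.2 and 186.5 CPM in doe-milk libraries 1 and 2. The doe-milk values nearly coincided, and the replacer-milk interval of 225 to 234 CPM lay above both of theirs, which reached 190 CPM. The log2 fold change was 0.19 (SE 0.19, edgeR adjusted p = 0.979). A LOC gene lies within ITGAL in ARS1.2, so its reads too may be shared.

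The myeloid chains varied more between the doe-milk libraries than between the feeds. ITGAM, a marker of monocytes, neutrophils and natural killer cells, had 70.4 CPM in replacer-milk library 1, against 41.6 and 105.6 CPM in doe-milk libraries 1 and 2. The doe-milk libraries were 2.54-fold apart with replacer milk between them (log2 fold change −0.18, SE 0.73, edgeR adjusted p = 0.993). Its value depended on the doe-milk library left out, at 0.64 without the second, where replacer milk is set against the lower doe-milk level, and −0.70 without the first. ITGAX, a chain of dendritic cells and monocytes, had 75.52 CPM in replacer-milk library 1, against 75.53 and 106 CPM in doe-milk libraries 1 and 2. By library totals replacer milk equalled doe-milk library 1 within counting error, and the log2 fold change of −0.38 (SE 0.27, edgeR adjusted p = 0.979) was −0.11 when doe-milk library 2 was left out and −0.60 when doe-milk library 1 was. ITGB2, the shared beta chain, had 501 CPM in replacer-milk library 1, against 419 and 546 CPM in doe-milk libraries 1 and 2, again between them (log2 fold change −0.057, SE 0.23, edgeR adjusted p = 0.992).

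**Figure D2:**
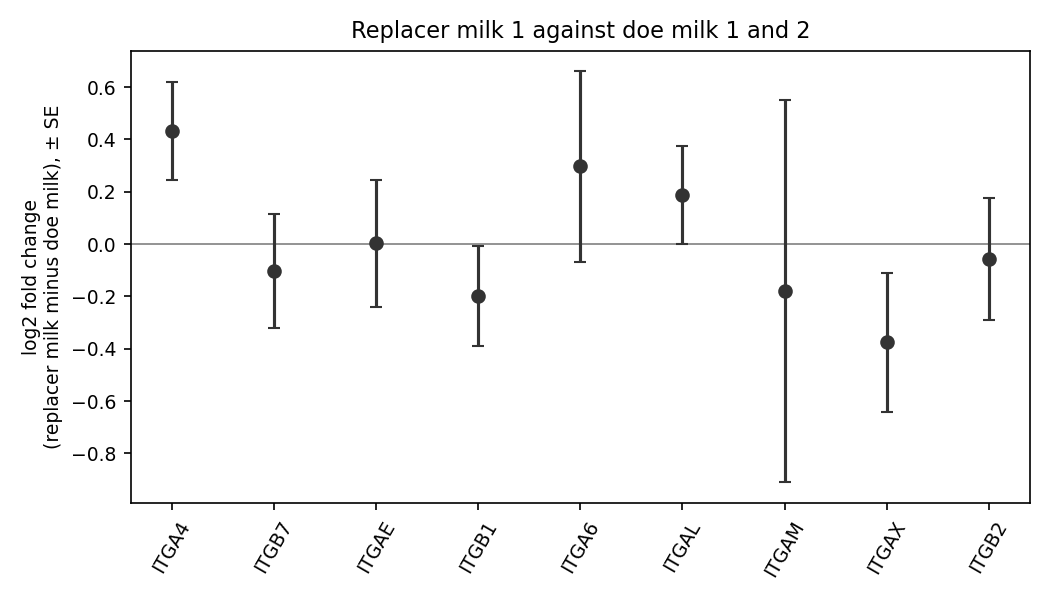
Log2 fold change of each integrin subunit (replacer-milk library 1 minus doe-milk libraries 1 and 2, edgeR after TMM scaling), with bars of 1 standard error. ITGA4 stands highest at 0.43 and ITGAX lowest at −0.38, ITGAM has the widest bar, and no member passed.

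For 3 of the 9 members (ITGA4, ITGAL and ITGB1) replacer-milk library 1 lay outside the doe-milk libraries by more than the gap between those. The same held for 33.5% of all genes tested. With library totals in place of TMM factors the median of all genes stood at 0.11 on the log2 scale, where it was −0.0057 after TMM scaling, so differences of that size depend on the scaling. ITGB2 and ITGB7 turned positive under it, and ITGA4, ITGAL and ITGB1 kept their place relative to both doe-milk libraries under each of the 4 scalings tried. ITGAX lay below both under each, but by library totals it equalled doe-milk library 1 within counting error, at 75.52 against 75.53 CPM.

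Marker lists of the cells that carry these integrins were summed in the same libraries, by library totals. These totals place replacer-milk library 1 higher than TMM scaling does (TMM factors 1.05 against 0.979 and 0.970). After TMM scaling it lay above both doe-milk libraries for 3 T cell, 4 B cell and 3 monocyte markers. It lay below both for 2, 4 and 0 of them. The T cell markers (9 genes in the table) reached 1942 CPM in replacer-milk library 1 and 1879 and 1565 CPM in doe-milk libraries 1 and 2. B cell markers (9 genes) summed to 2584 CPM against 2391 and 2223 CPM, and monocyte markers (6 genes) to 706 CPM against 549 and 556 CPM. The cytotoxic and natural killer list (6 genes) summed to 370 CPM against 294 and 494 CPM. Neutrophil markers (11 genes) summed to 350 CPM against 885 and 522 CPM. In the fit 9 of them were negative and 2 positive, with 7 below both doe-milk libraries and 1 above both. The granulocyte receptors CXCR2 and CSF3R had 16.6 CPM against 163 and 58.8 CPM and 70.2 CPM against 249 and 117 CPM. S100A8 had 104 CPM against 106 and 85.9 CPM, and LTF had 10.1 CPM against 3.16 and 7.62 CPM. The eosinophil and basophil list (6 genes) summed to 92.4 CPM against 166 and 148 CPM, and the dendritic cell list (7 genes) to 124 CPM against 165 and 119 CPM. TCF4 alone gave 97.9 CPM against 81.4 and 96.8 CPM of the dendritic cell sums. In the fit 6 dendritic cell genes were negative and 1 positive (median −0.94), with 3 below both doe-milk libraries and 0 above both. The erythroid list (7 genes) summed to 618 CPM against 1622 and 1801 CPM, nearly all of it the beta-type globin HBBC at 607 CPM against 1619 and 1794 CPM, while the heme synthesis enzyme ALAS2 had 9.62 CPM against 1.93 and 5.12 CPM. No list had a defining marker at 0 in these libraries, and the part of cell numbers in the integrin values was not tested. In bulk samples, fewer cells of a type and less RNA per cell cannot be told apart.

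Within a library, the counts of an alpha chain over those of its beta chain do not depend on scaling. The ratio of ITGA4 to ITGB7 counts was 1.41 in replacer-milk library 1 (exact binomial 95% interval 1.38 to 1.45), against 0.892 (0.869 to 0.915) and 1.08 (1.05 to 1.11) in doe-milk libraries 1 and 2. The ratio of ITGA4 to ITGB1 counts was 0.784 (0.768 to 0.800) against 0.508 (0.497 to 0.520) and 0.504 (0.493 to 0.515). Both ratios were higher in replacer-milk library 1 than in both doe-milk libraries, and the second was the same in the doe-milk libraries within counting error. These are ratios of counts, not of molecules, since the 2 chains differ in length, and they were not tested.

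The other 5 pairs were compared in the same way. The ratio of ITGA6 to ITGB1 counts was 0.233 in replacer-milk library 1 and 0.121 and 0.211 in doe-milk libraries 1 and 2, higher in replacer milk than in both. ITGAL over ITGB2 was 0.458 against 0.445 and 0.342, and its interval in replacer milk, 0.448 to 0.468, overlapped that of doe-milk library 1, 0.434 to 0.456. ITGAX over ITGB2 was 0.151 against 0.180 and 0.194, lower in replacer milk than in both. ITGAM over ITGB2 was 0.140 against 0.0993 and 0.194, and ITGAE over ITGB7 was 0.0659 against 0.0544 and 0.0697, both between the doe-milk libraries.

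**Figure D3:**
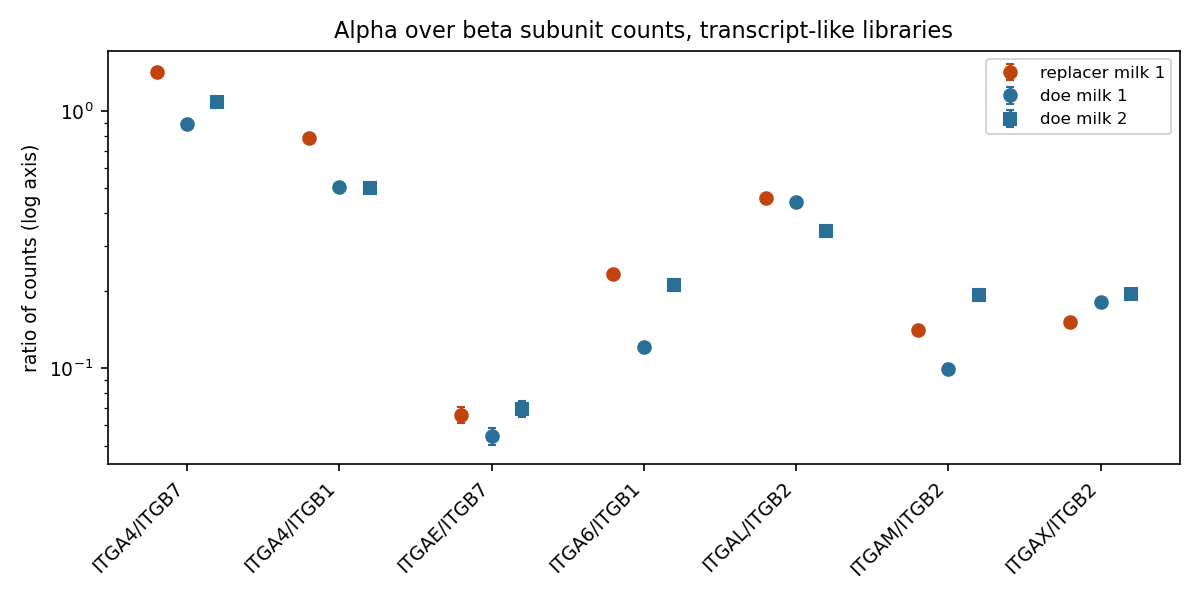
Counts of an alpha subunit over counts of its beta partner (log axis) in replacer-milk library 1 (red) and doe-milk libraries 1 and 2 (blue), with exact binomial 95% intervals. The ITGA4 ratios stand above both doe-milk libraries, at 1.41 over ITGB7 and 0.784 over ITGB1, and so does ITGA6 over ITGB1 at 0.233. ITGAX over ITGB2 stands below both at 0.151. ITGAL over ITGB2 lies above both at 0.458, with an interval that overlaps that of doe-milk library 1. The ITGAM and ITGAE ratios lie between the doe-milk values.

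Genes that switch integrins on and tie them to the cytoskeleton had a lower median than all genes in replacer-milk library 1. Of 26 listed genes 25 were in the table and 23 were tested, of which 14 had negative and 9 positive log2 fold changes, 0 passed in edgeR and the median was −0.14, beside −0.0057 for all genes. After TMM scaling, 13 of them lay below both doe-milk libraries in replacer-milk library 1 and 3 above both. Of all genes, 33.2% and 34.4% did so. The integrin-linked kinase ILK, which joins beta tails to actin, had 192 CPM in replacer-milk library 1, against 262 and 299 CPM in doe-milk libraries 1 and 2 (log2 fold change −0.66, SE 0.21, edgeR adjusted p = 0.783). RAP1A, a small GTPase that starts integrin activation, had 92.3 CPM against 141 and 107 CPM, and the ILK partner PARVB had 46.8 CPM against 54.1 and 71.6 CPM. The talin and kindlin that bind beta tails directly, TLN1 and FERMT3, were chosen for that role after their values were seen. TLN1 had 946 CPM against 660 and 941 CPM, and FERMT3 had 252 CPM against 256 and 250.5 CPM. By these library totals TLN1 lay above both doe-milk libraries and FERMT3 between them. After TMM scaling TLN1 lay between them and FERMT3 below both, so such places depend on the scaling.

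Of the other 17 integrin subunits listed, 16 were in the table and tested, with 9 positive and 7 negative log2 fold changes, 0 calls and a median of 0.088. ITGA5, the fibronectin receptor chain, had 38.0 CPM in replacer-milk library 1, against 30.2 and 21.3 CPM in doe-milk libraries 1 and 2. ITGA10, a collagen receptor chain, had 5.40 CPM against 2.62 and 3.55 CPM, and ITGB4, a chain of epithelial cells, had 0.212 CPM against 0.624 and 0.350 CPM. Together the 16 summed to 210 CPM against 172 and 204 CPM, whereas the 6 alpha chains followed here summed to 810 CPM against 596 and 722 CPM and the 3 beta chains to 1143 CPM against 1116 and 1182 CPM.

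Ligands and counter-receptors of the integrins were listed next to them. Of 16 such genes 14 were in the table and 9 were tested, 5 positive and 4 negative, with 0 calls and a median of 0.33. That median was the value of FN1, at 0.944 CPM in replacer-milk library 1 against 1.02 and 0.385 CPM in doe-milk libraries 1 and 2. Apart from the complement gene C3, the positive genes had at most 1.60 CPM in these libraries. ICAM1, the ligand of the beta2 integrins that inflammatory signals raise, had 82.7 CPM in replacer-milk library 1, against 125 and 102 CPM in doe-milk libraries 1 and 2 (log2 fold change −0.56, SE 0.22, edgeR adjusted p = 0.920). ICAM3, the ligand found on resting leukocytes, had 65.7 CPM against 71.8 and 91.2 CPM, and the junctional protein JAM2 had 0.867 CPM against 0.187 and 0.402 CPM. MADCAM1, the gut ligand of the alpha4 beta7 integrin, and CDH1, the E-cadherin bound by alphaE, are made by vessel and epithelial cells. They had 0.116 and 1.60 CPM in replacer-milk library 1, and at most 0.0832 and 1.33 CPM in the doe-milk ones. MADCAM1 and CDH1 were chosen for their role after their values were seen.

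Receptors that steer lymphocytes to lymph nodes and gut had 0 calls among 13 genes tested of 14 listed, with 6 positive and 7 negative log2 fold changes and a median of −0.029. CCR6, a chemokine receptor of memory lymphocytes and B cells, had 14.7 CPM in replacer-milk library 1, against 8.80 and 6.19 CPM in doe-milk libraries 1 and 2 (log2 fold change 0.86, SE 0.33, edgeR adjusted p = 0.905). CD44, a hyaluronan receptor, had 202 CPM against 142 and 159 CPM, and the selectin ligand SELPLG had 130 CPM against 169 and 135 CPM. CCR9, which acts with the alpha4 beta7 integrin in homing to the small intestine and was chosen for that role after its values were seen, had 27.5 CPM against 21.6 and 27.3 CPM (log2 fold change 0.057, SE 0.24, edgeR adjusted p = 0.993).

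Retinoic acid and TGF-beta set which gut-homing integrins a lymphocyte carries, the first through ITGA4 and CCR9 and the second through ITGAE. Of 20 listed genes of these pathways 19 were tested, 8 positive and 11 negative, with 0 calls and a median of −0.041. ALDH1A2, which makes retinoic acid, had 0.385 CPM in replacer-milk library 1, against 0.728 and 0.909 CPM in doe-milk libraries 1 and 2. The retinoid receptor RXRA had 61.4 CPM against 68.1 and 75.5 CPM, and the chromatin organiser SATB1 had 165 CPM against 104 and 137 CPM.

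**Figure D4:**
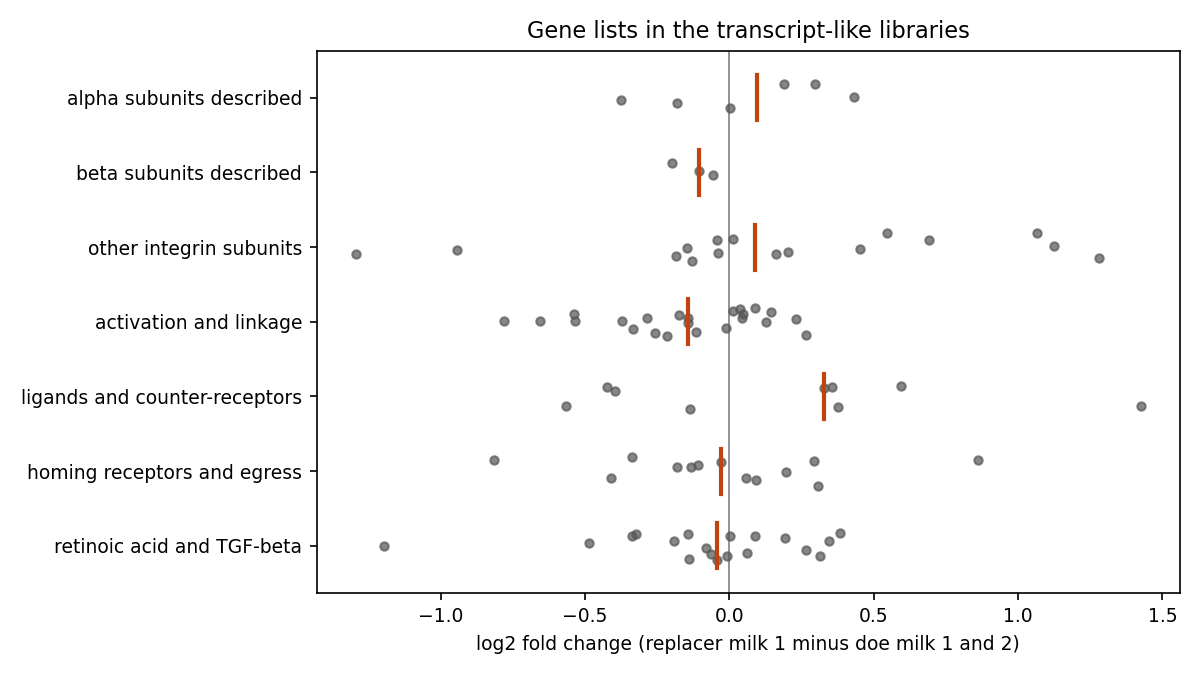
Log2 fold changes (replacer-milk library 1 minus doe-milk libraries 1 and 2) of the integrin subunits and of genes that activate, bind or accompany them, with 1 point per gene and the list median as a red bar. Medians run from −0.14 for activation and linkage to 0.33 for ligands, and no gene shown passed. The ligand median is the value of FN1, at 0.944 CPM in replacer-milk library 1.

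Genes placed among the 3 libraries most nearly as ITGB7 and ITGAM were searched by the Euclidean distance of centred log2 CPM over these 3 libraries, among 6208 genes with a symbol and at least 20 CPM. Over 3 libraries such a distance only describes the order and spacing of their values. Nearest to ITGB7 were TMBIM4, ARMC1 and CDPF1, at distances of 0.0043, 0.0085 and 0.011. Nearest to ITGAM were the co-receptor chain CD8A, the transcription factor MAFF and MRVI1, at distances of 0.068, 0.19 and 0.21. CD8A had 60.9 CPM in replacer-milk library 1 and 38.3 and 96.3 CPM in doe-milk libraries 1 and 2.

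The span-proportional libraries are shown apart, and there the integrins differed in how closely they followed gene span. Counts per kb of gene span were set over the median of 12142 autosomal protein-coding genes in the same library, so that a gene counted in proportion to its span stands near 1. In doe-milk library 3 all 9 members stood between 0.716 (ITGAE) and 1.29 (ITGAL). In replacer-milk libraries 2 and 3, 6 of the 9 stood between 0.536 and 1.42, while ITGAE stood at 6.37 and 6.67, ITGB1 at 3.71 and 3.90 and ITGB2 at 2.18 and 2.05. For ITGAE this placed it above 98.2% and 98.3% of those genes, where it lay above 17.6% in doe-milk library 3. In the transcript-like libraries the members ranged from 1.09 for ITGAE to 86.8 for ITGB2.

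**Figure D5:**
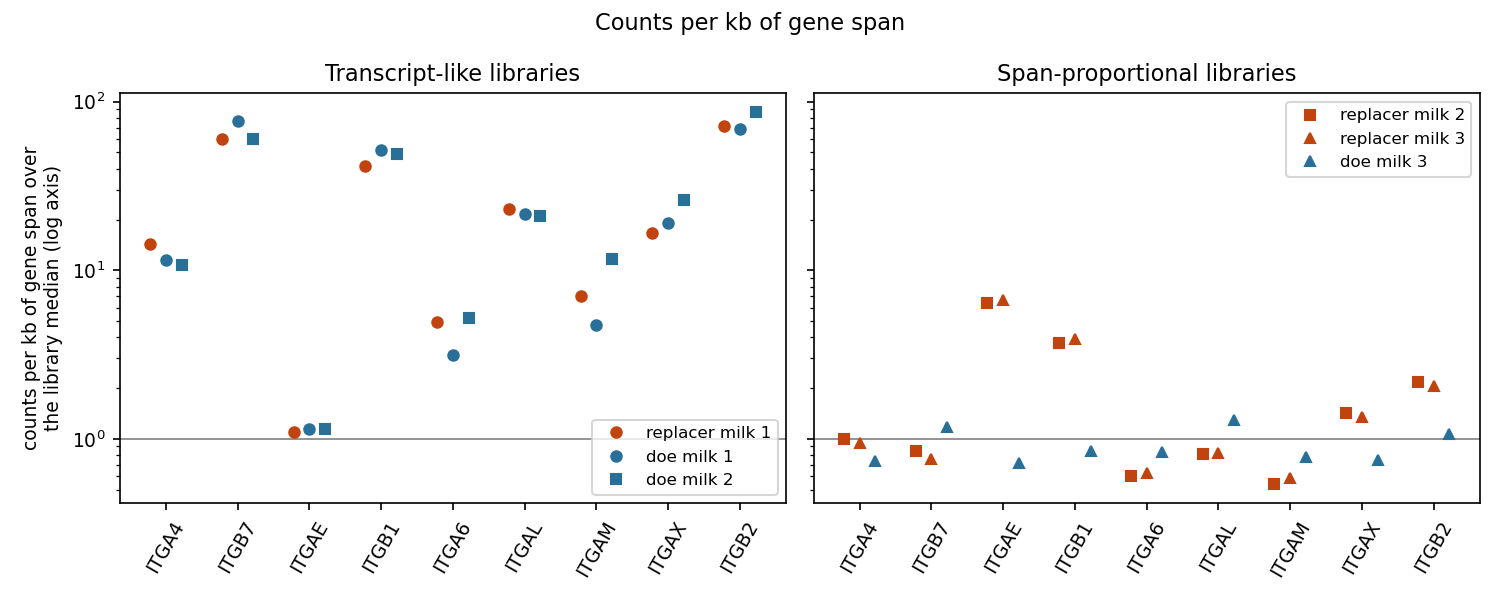
Counts per kb of gene span over the library median (log axis) for the 9 integrin subunits in the transcript-like libraries (left) and the span-proportional libraries (right), with replacer milk in red and doe milk in blue and a line at 1. In doe-milk library 3 every member lies between 0.716 and 1.29, while ITGAE, ITGB1 and ITGB2 lie above 2 in replacer-milk libraries 2 and 3.

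In CPM, ITGAE had 260 and 273 CPM in replacer-milk libraries 2 and 3 (7052 and 7284 counts), against 32.0 CPM in doe-milk library 3 (800 counts), 8.33-fold higher on the mean. ITGB1 had 108 and 114 CPM against 27.0 CPM, or 4.13-fold, ITGB2 45.2 and 42.7 CPM against 24.3 CPM, and ITGAX 18.98 and 18.1 CPM against 10.99 CPM. ITGA4 had 66.7 and 63.0 CPM against 54.3 CPM. The remaining 4 lay lower in both replacer-milk libraries, with ITGA6 at 34.6 and 36.2 CPM against 52.9 CPM, ITGAL at 23.9 and 24.3 CPM against 41.4 CPM, ITGAM at 15.96 and 17.6 CPM against 25.5 CPM and ITGB7 at 9.44 and 8.47 CPM against 14.3 CPM. The 2 replacer-milk libraries overlapped within counting error for 8 of the 9 members, the exception being ITGAE. The same share over all genes was not computed, so neither the overlap nor the exception is read as particular to the members. The doe-milk side is 1 library, and no test was run on these values alone. Of 20212 genes with at least 100 counts over these 3 libraries, 39.0% lay above doe-milk library 3 in both replacer-milk libraries and 56.5% below it in both, beside 5 and 4 members. For ITGAE, the fold lay above that of 98.1% of these genes, and for ITGB1 above that of 95.3%.

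Genes next to ITGAE in ARS1.2, chosen after their values were seen, differed in direction. P2RX5, an ATP-gated channel gene, was higher as ITGAE was, with 546 and 540 counts in replacer-milk libraries 2 and 3 against 252 counts in doe-milk library 3. In CPM that was 20.1 and 20.2 against 10.1 CPM, 2.00-fold on the mean, beside 8.33-fold for ITGAE. Its counts per kb of gene span over the library median were 1.88 and 1.89 against 0.861. GSG2 had 13 and 25 counts against 42 counts, and NCBP3, a cap-binding protein gene, had 366 and 349 counts against 902 counts. Other genes looked up with these, whose distance from ITGAE is not given here, also differed in direction. CAMKK1 had 670 and 651 counts against 543 counts (1.13-fold in mean CPM) and NRP1 2663 and 2587 counts against 2298 counts (1.06-fold). EMC6 had 10 and 12 counts against 49 counts (0.209-fold).

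The feed difference was set between the kinds of library in a fit with library kind, feed and their interaction. This fit takes its spread from doe-milk libraries 1 and 2 and replacer-milk libraries 2 and 3, with 2 residual degrees of freedom. Its standard errors and p-values do not cover variation of replacer-milk library 1 or doe-milk library 3, each the only library of its feed and kind. The test was added after seeing the data. It asks whether replacer milk minus doe milk differs between the transcript-like and the span-proportional libraries, and 23% of 21431 genes passed an edgeR adjusted p of 0.05, so that 3 of 9 members passing is read against that share. For ITGAE the log2 difference (transcript-like minus span-proportional) was −3.22 (SE 0.18, edgeR adjusted p = 0.00309). For ITGB1 it was −2.41 (SE 0.20, edgeR adjusted p = 0.00425), and for ITGAL 0.80 (SE 0.16, edgeR adjusted p = 0.0302). The ITGAL call was lost without replacer-milk library 2 or 3 (edgeR adjusted p = 0.221 and 0.210). The number of genes called was 1285 without replacer-milk library 2, 1290 without replacer-milk library 3, and 11343 or 11222 when the first or the second doe-milk library was left out.

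Over all 6 libraries, the comparison the labels set, no integrin subunit passed between the feeds. Of 21431 genes, 0% passed an edgeR adjusted p of 0.05 and 123 had an unadjusted p below 0.05, among them 1 member, ITGAE. DESeq2 called 0.00634% of genes, none of them a member, and limma voom called 0. ITGAE had a log2 fold change of 2.65 (SE 1.01, unadjusted p = 0.0389, edgeR adjusted p = 0.987). Its level in replacer-milk library 1, 15.1 CPM, lay below the 32.0 CPM of doe-milk library 3, so the groups overlapped. The other 8 members had negative log2 fold changes, from −1.10 (SE 1.42) for ITGAX to −0.38 (SE 1.48) for ITGA4, each smaller than its standard error. They depended on replacer-milk library 1, without which they ran from −5.29 (SE 1.98) for ITGB7 to −1.84 (SE 0.89) for ITGA6, each larger than its standard error, and ITGAE had 3.13 (SE 0.64), with edgeR adjusted p from 0.314 to 0.491 for the 9 members. Among the span-proportional libraries 2 are labelled replacer milk and 1 doe milk, and with library kind as a term, ITGA4 had 0.43, ITGAX 0.27, ITGB1 1.01 and ITGB2 0.48, the opposite sign. No member passed with that term (edgeR adjusted p from 0.407 to 0.933).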

How the data were processed

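The authors deposited raw counts per gene, as whole numbers, for 6 libraries in 1 table. The submitters' processing notes name featureCounts 2.0.0, the aligner STAR 2.7.10a, the trimmer fastp 0.22.0, and bcl2fastq 2.19.0.316, with MultiQC 1.12 and FastQC 0.11.9 for quality reports. RNA was extracted with TRIzol and libraries made with an NEBNext Ultra II kit, per the labels' protocols. For transcript selection, strand setting, genome build and annotation, nothing is stated. Sample descriptions linked columns to samples.

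In R 4.3.3, edgeR 4.0.16 was used with the filterByExpr filter, TMM factors and its robust quasi-likelihood test, two-sided, replacer milk minus doe milk, with Benjamini-Hochberg adjustment over all genes tested and a threshold of 0.05. Standard errors are the log2 fold change over the square root of F. CPM are counts over library totals, and intervals are exact at 95% and cover counting error only. Gene spans came from the RefSeq table of ARS1.2, which held 92.9% of the genes. The authors' build is unknown, so no coordinates are printed. The tests were tested on simulated data.

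The members, gene lists and kinds of library were chosen with earlier results of these data known. All members are named, and for each other list except the cell marker lists the 3 genes with the smallest p. From the cell marker lists single genes are named without that rule. Alternatives were scaling by upper quartile or RLE, no filter or a minimum of 1 CPM in every library, DESeq2 1.42.0, limma voom (limma 3.58.1), dispersions not robust, a threshold of 0.1, the replicate block, library kind as a term and each library left out. The interaction fit and library totals were added after seeing the data. Plots used matplotlib 3.10.9.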

Additional observations from a re-analysis of the deposited data

Results flagged for a closer look

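The feed difference differed between the 2 kinds of library for 3 integrin subunits by the interaction term, which 23% of all genes passed (edgeR adjusted p). ITGAE differed by −3.22 on the log2 scale (transcript-like minus span-proportional), with 15.1 CPM in replacer-milk library 1 against 13.8 and 14.1 CPM in doe-milk libraries 1 and 2, and 260 and 273 CPM in replacer-milk libraries 2 and 3 against 32.0 CPM in doe-milk library 3. ITGB1 differed by −2.41, with 413 CPM against 444 and 433 CPM in the first kind and 108 and 114 CPM against 27.0 CPM in the second. ITGAL differed by 0.80, with 229 CPM against 186.2 and 186.5 CPM and 23.9 and 24.3 CPM against 41.4 CPM, but did not pass without replacer-milk library 2 or 3 (edgeR adjusted p = 0.221 and 0.210). Replacer milk has 1 transcript-like library and doe milk 1 span-proportional library, and the test does not measure how these would vary.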

How the results depend on the processing

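No alternative gave a called integrin subunit between the feeds. Over all 6 libraries the 0 genes called became 1 with DESeq2 and 1 with library kind as a term, and 0 with each library left out. The replicate block gave 0 genes, with log2 fold changes of 2.21 for ITGAE and −1.77 for ITGB7. Libraries with the same number deviated together in pairs 1 and 3 (r = 0.894 and 0.927 across genes) and oppositely in pair 2 (r = −0.886). Libraries of unlike number but the same kind also deviated together. Replacer-milk library 1 with doe-milk library 2 gave r = 0.891, and replacer-milk library 2 with doe-milk library 3 gave r = 0.926. These values follow library kind, so they cannot show whether the numbers pair samples. In the transcript-like libraries the 3 genes called became 5 at a threshold of 0.1, 5 with RLE, 5 with upper quartile scaling, 90 with no filter, 0 with at least 1 CPM in every library, 148 with DESeq2, 0 with limma voom and 1 with dispersions not robust. The cause was not tested. Genes called for the difference between library kinds ran from 1285 to 11343 with each of 4 libraries left out.

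The direction turned in these cases. With library kind as a term, ITGA4, ITGAX, ITGB1 and ITGB2 had 0.43, 0.27, 1.01 and 0.48. ITGAE in the transcript-like libraries had −0.0026 with RLE, −0.0078 with at least 1 CPM and −0.0026 with DESeq2. With library totals, ITGB2 had 0.055 and ITGB7 0.0064. Leaving out a library gave −2.45 to 0.089 for ITGA4, −1.84 to 0.12 for ITGA6 and −2.85 to 0.047 for ITGAM over all 6 libraries. In the transcript-like ones it gave −0.043 to 0.73 for ITGA6, −0.020 to 0.018 for ITGAE, −0.26 to 0.059 for ITGB7, −0.70 to 0.64 for ITGAM and −0.24 to 0.14 for ITGB2, as values with no test. The 4 members outside the doe-milk range were 6 by library totals, 4 with RLE and 5 with upper quartile scaling. With 1 doe-milk library left that count has no meaning and was not run. Each member had at least 226 counts in every library. Without replacer-milk library 1, the 6-library values of the other members ran from −5.29 for ITGB7 to −2.60 for ITGB1, with ITGAE at 3.13.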
